A study of Mus musculus with 6 samples.

Results

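Small leucine-rich proteoglycans are secreted matrix proteins whose core is built from leucine-rich repeats, and 10 of their genes were followed here: Dcn, Bgn, Aspn, Fmod, Lum, Prelp, Kera, Omd, Ogn and Podn. They were taken by gene name rather than by a cut on measured values, though with earlier results of these data known. All 10 were found among the 33919 genes of the deposited table. The libraries came from mouse aortas of 2 groups, 3 labelled KO and given Ang II and 3 labelled WT and given Ang II, and the design text names 3 mice per group. Ang II (angiotensin II, a vasoconstrictor peptide that drives remodelling of the vessel wall) was thus shared by both groups, and no untreated aorta is part of the comparison. The series title names OTUD1, a deubiquitinase, and an endothelial role for it, while the sources used here give no allele, strain, sex or age. Libraries carry no animal identifier, and p-values therefore reflect only how these 6 libraries vary.

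In connective tissue these proteoglycans sit on collagen fibrils and control how thick the fibrils grow and how they are spaced. Decorin (Dcn) and biglycan (Bgn), the class I members, carry chondroitin or dermatan sulfate chains and also bind TGF-beta, while class II members such as lumican (Lum), fibromodulin (Fmod) and keratocan (Kera) can carry keratan sulfate. In arteries they are made mainly by adventitial fibroblasts and smooth muscle cells.

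Total counts, in units of 1e6, were between 62.3 and 71.5 per library. Mitochondrial genes and their nuclear copies took 64.8 to 67.8% of counts in the libraries labelled KO and 71.1 to 73.7% in those labelled WT, which left 17.3 to 23.4 (1e6 counts) for all other genes. Otud1 had 1033, 1141 and 1223 counts in the libraries labelled KO, against 593, 699 and 615 in those labelled WT. It was thus higher where the label says knockout (log2 fold change 0.63, SE 0.12, adjusted p = 0.0039 by edgeR's quasi-likelihood test), and the groups are named by their labels throughout. Whether the labels are exchanged, or the deleted part lies outside the counted exons, was not tested; with exchanged labels the sign of every fold change given here would turn. The smooth muscle marker Acta2 was present at 49.0 CPM in the libraries labelled KO and 206 CPM in those labelled WT, while the skeletal muscle actin Acta1 reached 6827 CPM in the libraries labelled KO and 4214 CPM in those labelled WT. CPM are counts scaled to a common depth with edgeR's TMM (a trimmed mean of log ratios), used here to compare 1 gene between libraries. The third library labelled WT stood apart from the other 5 on the second principal component (15.2% of the variance), and the count of proteoglycan genes that passed the test was 8 with or without it.

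The genes lie at 5 loci (GRCm38). Chromosome 10 holds Dcn (97479609 to 97518143), Lum (97565128 to 97572703) and Kera (97606879 to 97613692), all on the plus strand, with 47.0 and 34.2 kb between neighbours. Chromosome 13 holds Aspn (49544443 to 49567565), Omd (49582462 to 49592822) and Ogn (49608046 to 49624501), also on the plus strand, with 14.9 and 15.2 kb between them. Chromosome 1 holds Prelp (133910304 to 133921414, minus strand) and Fmod (134037254 to 134048277, plus strand). Bgn lies alone on chromosome X (73483602 to 73495933, plus strand) and Podn alone on chromosome 4 (108014791 to 108032337, minus strand). Exon structure followed the classes in the longest coding transcript of GENCODE M21. Dcn, Bgn and Aspn (class I) had 8 exons each. Fmod, Lum, Prelp and Kera (class II) had 3, and Omd, of the same class, had 4. Ogn (class III) had 7 and Podn (class V) had 13.

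The upstream sequences of 3 members are shown, Fmod and Ogn as genes with large falls measured below and Aspn as the gene with the smallest change among those that passed. Each is the 250 bases before the RefSeq start site (GRCm38.p6), 5′ to 3′ on the plus strand, at chr1:134037004-134037253 for Fmod, chr13:49607765-49608014 for Ogn and chr13:49544193-49544442 for Aspn. Capitals mark exact matches, on either strand, to TATAAA (the TATA box), CCAAT (the CCAAT box), GTCTG (a SMAD-binding motif), GTCTAGAC (its palindrome), TGANTCA (the AP-1 motif) or GGAATG (a TEAD motif).
Fmod: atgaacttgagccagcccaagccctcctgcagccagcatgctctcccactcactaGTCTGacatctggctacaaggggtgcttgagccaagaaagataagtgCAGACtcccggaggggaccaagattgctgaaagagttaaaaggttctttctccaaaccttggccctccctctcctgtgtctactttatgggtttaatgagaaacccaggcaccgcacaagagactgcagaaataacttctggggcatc
Ogn: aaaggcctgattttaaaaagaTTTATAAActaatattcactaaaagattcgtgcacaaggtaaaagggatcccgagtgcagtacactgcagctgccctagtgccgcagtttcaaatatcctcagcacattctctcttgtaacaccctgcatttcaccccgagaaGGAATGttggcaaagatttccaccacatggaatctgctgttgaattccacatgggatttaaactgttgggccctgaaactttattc
Aspn: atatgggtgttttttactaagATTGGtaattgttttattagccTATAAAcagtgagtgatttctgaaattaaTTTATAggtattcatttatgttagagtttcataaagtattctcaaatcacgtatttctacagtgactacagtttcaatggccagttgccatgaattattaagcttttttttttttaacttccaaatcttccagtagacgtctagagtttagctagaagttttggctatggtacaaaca

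Promoter windows of 300 bases (250 before and 50 after the start site) matched 8 of the 10 members by symbol, Podn with a pair of windows. GTCTG or its reverse complement CAGAC was found in the windows of 3 members, Fmod, Prelp and Podn, and in 49.6% of all 32851 windows. CCAAT or ATTGG was found in 4, Aspn, Fmod, Kera and Prelp, against 37.4% of all windows. TATAAA or TTTATA was found in Aspn and Ogn, far upstream of the start site, against 13.6% of all windows; in Ogn a match on each strand overlaps. GGAATG or CATTCC was found in Ogn alone, against 14.7%. The E-box CANNTG was found in 6, against 72.3%. GTCTAGAC and TGANTCA were in none of the member windows, against 0.213% and 7.81% of all windows. These matches are a description of letters in the windows and say nothing of binding.

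Of the 10 proteoglycan genes, 8 fell in the libraries labelled KO, 0 rose and 2 did not pass the test (adjusted p under 0.05, edgeR's quasi-likelihood test, adjusted over 16620 genes). Across all genes tested, 10.5% passed as lower and 11.5% as higher. The median log2 fold change was -1.37 for the members, unchanged with Kera at its bound given below, against -0.02 for all genes tested. All 10 passed the filter on low counts, Kera through the libraries labelled WT alone. Of the 8, 7 were lower by at least 2-fold, as were 3.97% of all genes tested. In 8 genes every library labelled KO lay below every library labelled WT on the CPM scale, which was so in 19.4% of all genes tested.

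**Figure D1:**
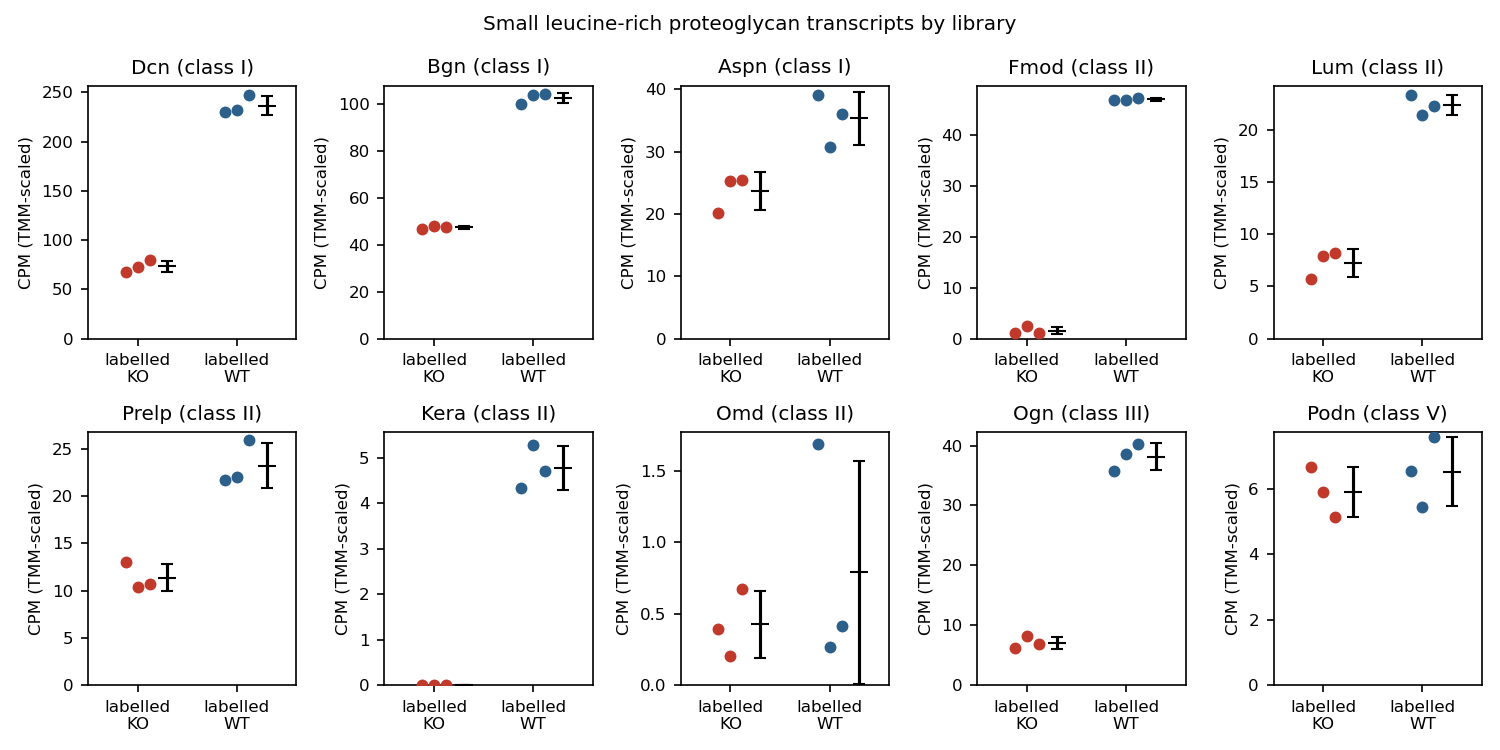
Level of each gene in each library, as TMM-scaled CPM on linear axes from 0, with libraries labelled KO in red on the left and libraries labelled WT in blue on the right; the black mark and bar beside each group are its mean and SD (n = 3). The 2 groups overlap only for Omd and Podn, and Kera is at 0 in all libraries labelled KO.

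Among the class I genes, decorin was the most abundant proteoglycan transcript in both groups and fell about as much as lumican. Dcn, whose protein binds type I collagen and TGF-beta, measured 67.8, 72.9 and 79.3 CPM in the libraries labelled KO, against 230.4, 232.0 and 247.6 CPM in those labelled WT. The groups were far apart, and the spread within each was small. The log2 fold change was -1.69 (SE 0.06, 3.23-fold lower, adjusted p = 2.6e-08). Bgn, the closest relative of Dcn, stood at 46.7, 47.9 and 47.6 CPM in the libraries labelled KO, against 100.2, 103.7 and 104.1 CPM in those labelled WT. It fell by 1.11 on the log2 scale (SE 0.05, 2.16-fold lower, adjusted p = 1.4e-07). Aspn encodes asporin, which binds collagen and TGF-beta1 and carries an aspartate-rich stretch. It stood at 20.1, 25.4 and 25.4 CPM in the libraries labelled KO, against 39.2, 30.8 and 36.0 CPM in those labelled WT. The groups were separate by the gap between 25.4 and 30.8 CPM, the narrowest of the 8 genes in proportion to its level. The log2 fold change of Aspn was -0.58 (SE 0.12, 1.496-fold lower, adjusted p = 0.0045), and its 95% interval of -0.84 to -0.32 lay above those of Bgn (-1.23 to -0.999) and Dcn (-1.83 to -1.55). On unfiltered FPKM Aspn no longer passed (adjusted p = 0.12).

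The class II genes ranged from an unresolved difference to loss of all reads. Fmod, which encodes fibromodulin, a collagen-binding protein abundant in tendon, had 77, 178 and 83 counts in the libraries labelled KO, against 3143, 2809 and 2954 in those labelled WT. The second library labelled KO held more than either of its replicates, yet all 3 were far below the other group. On the CPM scale Fmod averaged 1.55 ± 0.76 in the libraries labelled KO and 46.9 ± 0.26 in those labelled WT (SD, n = 3 each), a log2 fold change of -4.91 (SE 0.26, 30.1-fold lower, adjusted p = 3.6e-07). Only 96 of the 16620 genes tested had a lower fold change.

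Kera, which encodes keratocan, a keratan sulfate proteoglycan best known from the cornea, had 0 counts in all 3 libraries labelled KO and 291, 318 and 294 counts in those labelled WT. With a floor of 12 counts per library, equal to 3 read pairs at 4 counts each, Kera was at least 28.8-fold lower in the libraries labelled KO (adjusted p = 1.8e-06). This floor covers counting error only. Lum, which encodes lumican, a regulator of fibril diameter, stood at 5.76, 7.89 and 8.22 CPM in the libraries labelled KO, against 23.4, 21.5 and 22.4 CPM in those labelled WT. The log2 fold change of Lum was -1.62 (SE 0.14, 3.07-fold lower, adjusted p = 1.1e-05). Its interval of -1.92 to -1.32 overlapped that of Dcn, its neighbour on chromosome 10.

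Prelp encodes a heparin-binding member found at basement membranes and in cartilage. It stood at 13.1, 10.4 and 10.7 CPM in the libraries labelled KO, against 21.7, 21.99 and 25.9 CPM in those labelled WT. It fell by 1.03 on the log2 scale (SE 0.12, 2.04-fold lower, adjusted p = 0.00012). Omd, which encodes osteomodulin, an acidic protein of bone matrix, was near the limit of detection, with 28, 15 and 49 counts in the libraries labelled KO, against 113, 16 and 26 in those labelled WT. The groups overlapped, and a single library labelled WT held most of that group's counts. The log2 fold change of Omd was -0.89 (95% interval -2.61 to 0.82, adjusted p = 0.48), and without the first library labelled WT it was 0.31. No difference in Omd was detectable at this depth.

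Ogn, the class III member, encodes osteoglycin (mimecan), a small keratan sulfate proteoglycan of bone and vessel wall. It stood at 6.25, 8.21 and 6.83 CPM in the libraries labelled KO, against 35.7, 38.6 and 40.2 CPM in those labelled WT. The log2 fold change was -2.43 (SE 0.11, 5.38-fold lower, adjusted p = 1.5e-07), below the intervals of Dcn, Lum, Bgn, Prelp and Aspn. Podn, the class V member, encodes podocan, which binds type I collagen. It stood at 6.66, 5.88 and 5.12 CPM in the libraries labelled KO, against 6.55, 5.44 and 7.58 CPM in those labelled WT. The groups overlapped, with a log2 fold change of -0.15 (SE 0.17, 95% interval -0.52 to 0.23, adjusted p = 0.60). That interval leaves out a fall as large as that of Bgn, and Podn, with 372 to 474 counts in the libraries labelled KO and 327 to 474 in those labelled WT, was not limited to a few reads.

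**Figure D2:**
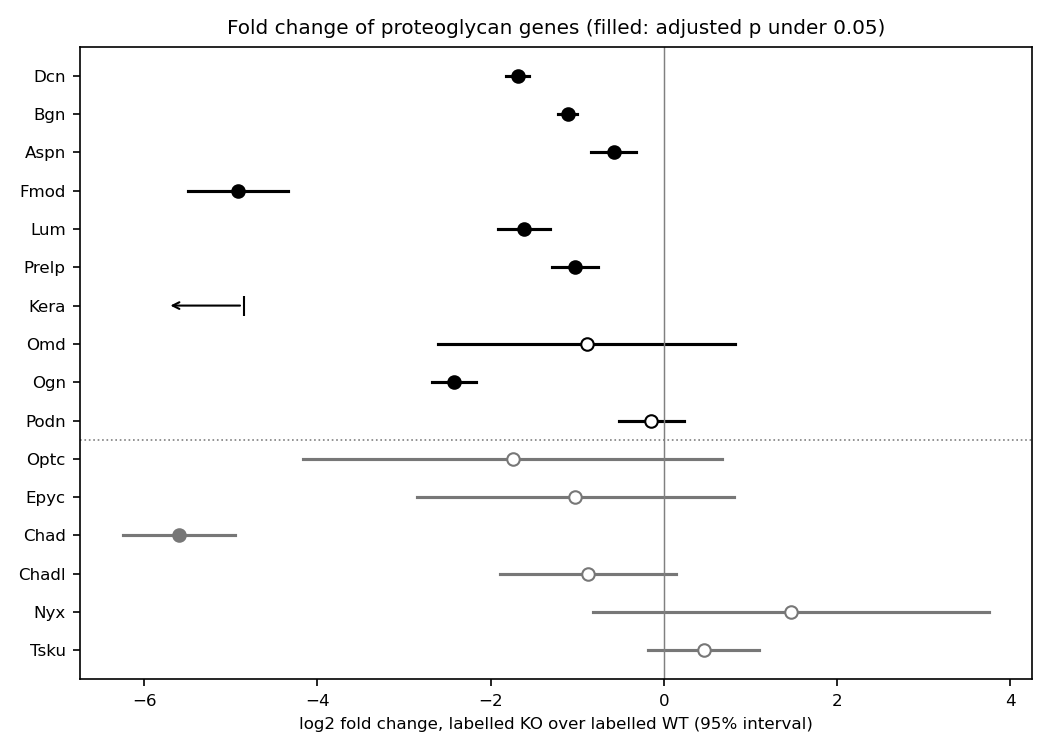
Fitted log2 fold change, libraries labelled KO over libraries labelled WT, with its 95% interval for the 10 genes (black) and for 6 other family genes that could be tested (grey, below the dotted line); filled circles passed an adjusted p of 0.05. Kera is drawn at its bound, 4.85 below 0, with an arrow to lower values, and only Omd and Podn among the 10 have intervals that include 0.

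Levels of different genes were compared on the deposited FPKM (fragments per kilobase of transcript, scaled to library depth). No source used here describes the length taken for each gene, and the order between genes depends on it. In the libraries labelled KO the order ran Dcn (11.96 ± 0.55 FPKM), Aspn (9.54 ± 0.93), Bgn (7.41 ± 0.19), Prelp (3.01 ± 0.50), Lum (2.83 ± 0.43), Ogn (2.63 ± 0.34), Podn (1.32 ± 0.22), Fmod (0.45 ± 0.21), Omd (0.18 ± 0.095) and Kera, listed at 0 (SD, n = 3). Prelp, Lum and Ogn overlapped in that group, and every other neighbour in the order was separate. Aspn stood above Bgn on FPKM although Bgn had more counts in that group (3329, 3504 and 3458, against 1430, 1853 and 1844). The longest coding transcripts have 2419 bases for Bgn and 2329 for Aspn. The place of Bgn beside Aspn therefore rests on the length used in the FPKM. In the libraries labelled WT the order ran Dcn (34.9 ± 3.0 FPKM), Bgn (14.5 ± 0.82), Aspn (12.9 ± 1.90), Ogn (12.8 ± 1.20), Fmod (12.2 ± 0.65), Lum (7.87 ± 0.58), Prelp (5.53 ± 0.82), Kera (1.79 ± 0.15), Podn (1.32 ± 0.28) and Omd (0.30 ± 0.29). There the ranges of Bgn and Aspn, of Aspn and Ogn, and of Ogn and Fmod overlapped. Fibromodulin thus stood level with osteoglycin and asporin in the libraries labelled WT and below podocan in those labelled KO.

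The summed FPKM of the 10 genes was 38.0, 40.2 and 39.8 in the libraries labelled KO, against 102.7, 96.6 and 112.9 in those labelled WT. Within that sum the make-up also differed. The size of each share depends on the length taken for each gene in the FPKM, and shares on other lengths were not computed. Aspn held 24.2 ± 1.7% in the libraries labelled KO and 12.4 ± 1.4% in those labelled WT, and Bgn held 18.9 ± 1.0% and 13.9 ± 0.47% (SD, n = 3 each). Fmod held 1.13 ± 0.52% in the libraries labelled KO and 11.7 ± 0.30% in those labelled WT, and Ogn held 6.69 ± 0.72% and 12.3 ± 0.65%. The share of Dcn was 30.4 ± 1.1% in the libraries labelled KO and 33.5 ± 0.61% in those labelled WT. For Aspn, Bgn, Fmod, Ogn and Dcn the 2 groups did not overlap, while the share of Lum did overlap, at 7.17 ± 0.90% and 7.57 ± 0.33%.

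Ratios between 2 members within a library do not depend on how libraries are scaled. Their size does depend on the length taken for each gene in the FPKM. The FPKM of Bgn over that of Dcn was 0.660, 0.629 and 0.575 in the libraries labelled KO, against 0.416, 0.427 and 0.402 in those labelled WT. Aspn over Dcn was 0.734, 0.863 and 0.795 in the libraries labelled KO, against 0.421, 0.329 and 0.361 in those labelled WT. Lum over Dcn overlapped, at 0.236 ± 0.029 in the libraries labelled KO and 0.226 ± 0.014 in those labelled WT (exact permutation test, two-sided p = 0.7). For Bgn, Aspn, Prelp, Podn, Fmod, Kera and Ogn the ratio to Dcn separated the groups, each with p = 0.1 in the exact two-sided permutation test, which is the smallest p that 3 libraries against 3 allow.

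**Figure D3:**
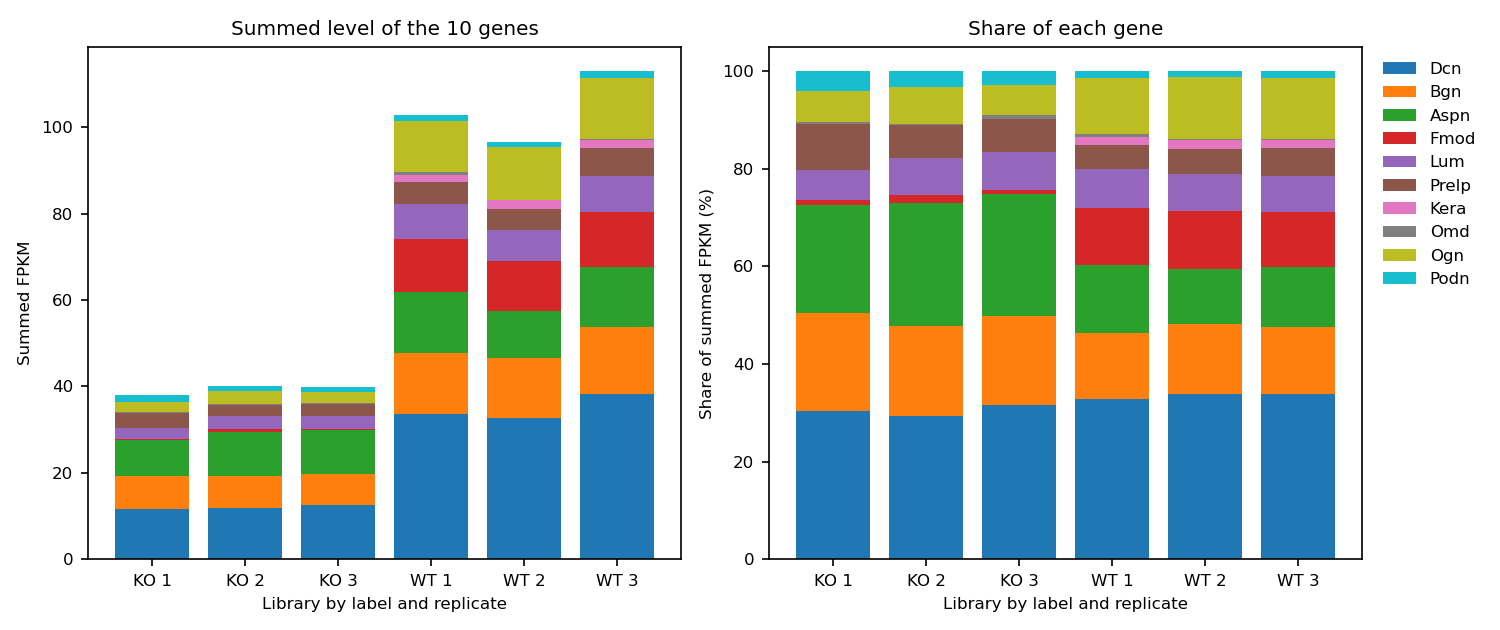
Summed FPKM of the 10 genes (left) and the share of each gene in that sum in percent (right) for each library, with libraries labelled KO left of libraries labelled WT and 1 colour per gene. The sum is between 38.0 and 40.2 in the libraries labelled KO and between 96.6 and 112.9 in those labelled WT, and Fmod shrinks from view while Aspn and Bgn take larger shares in the libraries labelled KO.

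Genes beside the 5 loci were examined by taking the 3 nearest tested genes on each side, and any tested gene within, that are not in the family. Of these 31 genes, 4 fell, 3 rose and 24 did not pass, with a median log2 fold change of 0.01, and across all genes 22% passed in either direction. On chromosome 10 the nearest tested neighbours of the Dcn, Lum and Kera cluster lay 856800 bases before it, Btg1 (an antiproliferative gene, log2 fold change -0.32, adjusted p = 0.037), and 1300714 bases after it, Atp2b1 (a plasma membrane calcium pump, 0.05, adjusted p = 0.84). On chromosome 13 Ecm2, a leucine-rich matrix gene 11654 bases before Aspn, fell by 0.55 (adjusted p = 0.0031), close to the fall of Aspn. On the other side of that cluster Nol8 (0.21), Iars (0.38) and Gm24017 (0.32) did not pass. Cenpp, a centromere gene, spans the whole cluster on the opposite strand with 3 to 19 counts per library, and because the use of strand in counting is unknown, its reads and those of Aspn, Omd and Ogn may not be told apart.

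On chromosome 1 the nearest tested gene beyond Fmod, Btg2, fell by 0.37 on the log2 scale (adjusted p = 0.012), against -4.91 for Fmod itself. Mybph, a muscle myosin-binding protein gene 145171 bases from Fmod, rose by 1.86. Around Bgn only Pnck, a kinase gene, fell (-1.11, adjusted p = 0.023). Around Podn Cpt2 (0.28) and Echdc2 (0.52), which encode mitochondrial enzymes, rose.

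**Figure D4:**
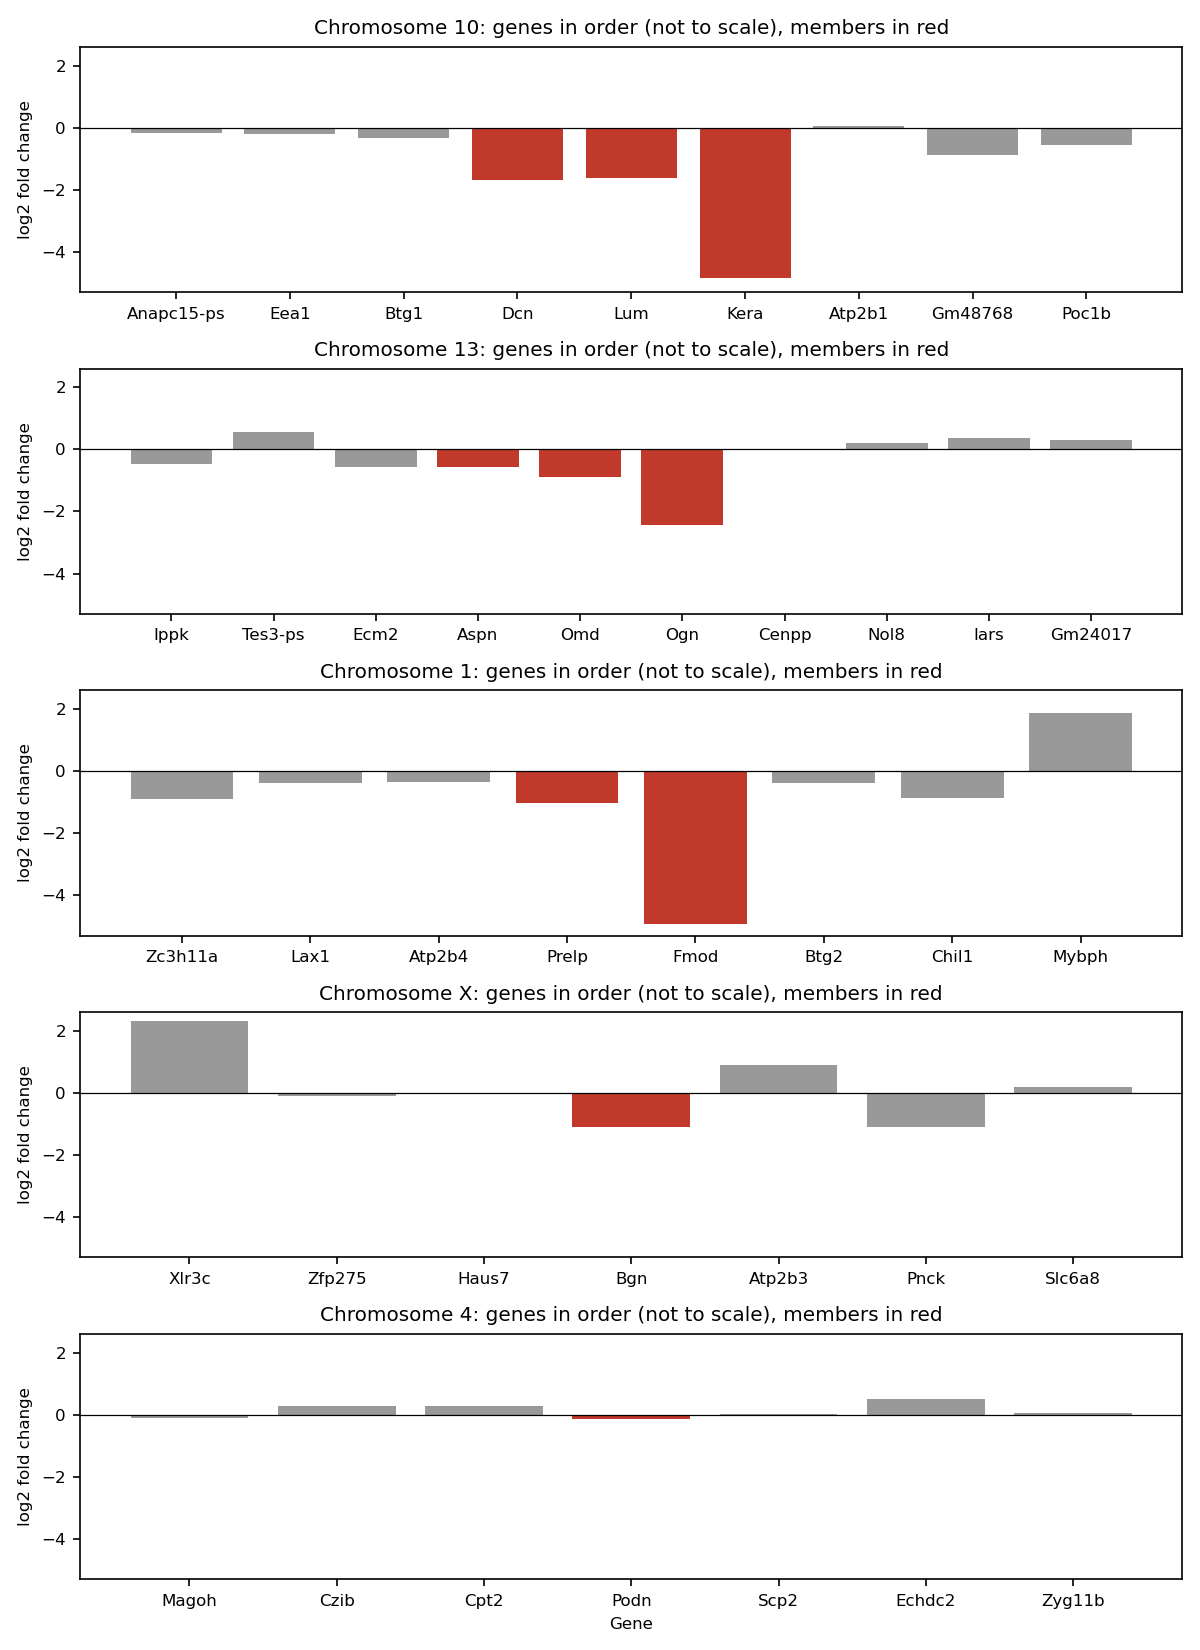
Log2 fold change (libraries labelled KO over libraries labelled WT) of the proteoglycan genes (red) and of the tested genes outside the family lists used here nearest to each of the 5 loci (grey), in chromosome order and not to scale; Cenpp, which overlaps the chromosome 13 cluster, is drawn after it, and Kera is drawn at its bound, 4.85 below 0. Neighbours of the clusters stay between -1.11 and 2.30 while Fmod, Kera and Ogn extend to -2.43 or lower.

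The other family genes were nearly all close to the detection limit. Of the 7 listed, Ecm2 not among them, 6 could be tested, and 1 fell. Chad, which encodes chondroadherin, a class IV protein of cartilage and tendon that lacks glycosaminoglycan chains, had 8, 8 and 15 counts in the libraries labelled KO, against 447, 393 and 487 in those labelled WT (adjusted p = 3.15e-07). Its level in the libraries labelled KO lay at about the floor of 12 counts, and it passed the filter through the libraries labelled WT alone. Tsku, which encodes tsukushi, a secreted inhibitor of signalling proteins, averaged 2.40 ± 0.62 CPM in the libraries labelled KO and 1.74 ± 0.27 CPM in those labelled WT (SD, n = 3 each, adjusted p = 0.31). Optc, Epyc, Chadl and Nyx had mean CPM below 1 in both groups and did not pass.

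Genes for the enzymes that build the glycosaminoglycan chains also fell in part. Each list count from here on stands beside shares of 10.5% lower and 11.5% higher among all genes tested. The lists were chosen with earlier results of these data known, so their counts are a description and not an independent test. Of 21 tested genes of the linker region and of chondroitin and dermatan sulfate, 6 fell, 0 rose and 15 did not pass, with a median log2 fold change of -0.37. The chondroitin polymerising factor Chpf (-1.07, adjusted p = 0.0021), the uronyl 2-sulfotransferase Ust (-1.93, adjusted p = 0.014), the xylose kinase Fam20b (-0.44, adjusted p = 0.020) and the chondroitin synthase Chsy1 (-0.79, adjusted p = 0.028) fell. That count was 2 without the second library labelled WT, the second labelled KO or the third labelled KO, 3 without the third labelled WT and 3 with the replicate number as a block. In the fits on a mean FPKM of at least 1 it was 0, with only 5 genes of the list tested. Without that filter it was 1, with 22 tested. Of 10 tested keratan sulfate genes, 3 fell and 1 rose, with a median of -0.38. B3gnt7, an enzyme of keratan sulfate extension, had 4, 0 and 0 counts in the libraries labelled KO, against 36, 46 and 78 in those labelled WT (adjusted p = 0.0068). It lay under the floor of 12 counts in every library labelled KO and passed the filter through the libraries labelled WT alone. B4galt1 fell by 0.46 and the sialyltransferase St3gal2 by 0.52, while St3gal1 rose by 0.42. No gene of the list passed as higher with the replicate number as a block or without the first library labelled WT, the third labelled WT or the first labelled KO, and on the FPKM scale without quantile normalization none of this list fell. On that scale 2 genes of the list rose of 6 tested with a mean FPKM of at least 1, and 0 rose of 10 tested without a filter.

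Most tested genes of the collagens on which these proteoglycans assemble, and of collagen processing, fell. Of 22 tested genes of fibrillar and fibril-associated collagens and their processing enzymes, 16 fell, 1 rose and 5 did not pass, with a median of -0.89. On the FPKM scale 9 fell in each fit without quantile normalization, of 15 tested with a mean FPKM of at least 1 and 24 without a filter. The collagen gene Col5a3 was higher in every library labelled KO, with a log2 fold change of 0.28 (adjusted p = 0.052). Col1a2 fell by 2.18 and Col1a1 by 2.10 on the log2 scale, Col3a1 by 0.97 and Col14a1, which encodes a collagen on fibril surfaces, by 1.24. The lysyl oxidase gene Lox fell by 0.80 (adjusted p = 0.0041). Col11a1, among the 16 that fell, had 8, 13 and 1 counts in the libraries labelled KO, against 127, 91 and 62 in those labelled WT. Col11a1 passed the filter through the libraries labelled WT alone. Tnxb, which encodes tenascin X, rose by 0.47 (adjusted p = 0.00089). Among 11 tested proteases, several of which can cleave these proteoglycans, 6 fell and 1 rose, with Mmp3 at -2.27, Adamts5 at -0.95, Mmp2 at -0.90 and Adamts1 at -1.29; the list median was -0.95. The gene that rose was the collagenase gene Mmp8, with 24, 16 and 33 counts in the libraries labelled KO, against 0, 0 and 3 in those labelled WT (adjusted p = 0.037). It passed the filter through the libraries labelled KO alone. No protease passed as higher with the replicate number as a block, without a filter, with a mean CPM of at least 1, with counts divided by 4, or with any 1 library left out other than the third labelled WT.

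Binding partners in signalling fell in part. Of 22 tested ligands, receptors and effectors known to bind or act with family proteins, 8 fell, 1 rose and 13 did not pass, with a median of -0.45. Among the 8, Ccn4 had 13, 0 and 0 counts in the libraries labelled KO, against 119, 29 and 67 in those labelled WT. Ccn4 passed the filter through the libraries labelled WT alone. Tgfb3 fell by 1.71 on the log2 scale and Ccn2, a matricellular growth factor that decorin binds, by 2.27, while Fas, a death receptor, rose by 0.49 and Kdr, the VEGF receptor, fell by 0.38. Tlr2 (-1.11, adjusted p = 0.14) and Tlr4 (0.34, adjusted p = 0.54), receptors for soluble biglycan, did not pass. The list's count of lower genes was 4 without the first library labelled WT and 5 without the second library labelled KO, and 2 to 4 on FPKM. A mean FPKM of at least 1 left only 7 genes of the list to test, against 22 without a filter.

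Other proteoglycans gave a mixed picture, beside 10.5% lower and 11.5% higher among all genes tested. Of 17 tested genes of large, basement membrane and cell-surface proteoglycans, 7 fell and 2 rose, with a median of -0.35. The count of lower genes was 3 without the second library labelled KO and 2 on FPKM without quantile normalization. There 10 genes were tested with a mean FPKM of at least 1 and 22 without a filter. The glypican Gpc3 fell by 2.51 (adjusted p = 1.0e-05) and the syndecan Sdc2 by 0.81, whereas Gpc1 rose by 0.53 (adjusted p = 0.00012). The count of higher genes was 1 without the first library labelled WT, the second labelled KO or the third labelled KO. Gpc6 had 0 counts in each library labelled KO, against 54, 18 and 23 in those labelled WT (adjusted p = 0.0047). It passed the filter through the libraries labelled WT alone, and those counts lay close to the floor of 12.

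Markers of the cells that make these proteins moved in the same libraries. Among all genes tested, 10.5% passed as lower and 11.5% as higher. The marker lists too were chosen with earlier results of these data known, so their counts are descriptive. In bulk tissue, fewer cells of a type and less RNA per cell cannot be told apart. Of 14 fibroblast markers 11 fell and 0 rose, and their summed level was 584 to 609 CPM in the libraries labelled KO, against 983 to 994 in those labelled WT. Of 10 smooth muscle markers 8 fell and 1 rose, with sums of 189 to 199.8 CPM in the libraries labelled KO, against 536 to 538 in those labelled WT. Myocd was at 0 in the libraries labelled KO and passed the filter through the libraries labelled WT alone. Of 11 tendon markers 8 fell and 0 rose, with sums of 27.8 to 31.5 CPM in the libraries labelled KO, against 90.4 to 98.6 in those labelled WT. Tnmd, which encodes tenomodulin, fell by 3.98 on the log2 scale and Comp by 3.75, while Scx had a log2 fold change of -0.46 (adjusted p = 0.16). The part of these cell types in the changes of the proteoglycan genes was not tested.

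Of 14 cartilage and bone markers 2 could be tested and neither passed. Acan, Col9a2, Matn3, Bglap and Dmp1 were at 0 in the libraries labelled KO, and Col9a1, Matn1, Ibsp and Sp7 in all 6 libraries. Of 10 macrophage markers 6 fell and 0 rose, with sums of 163 to 167 CPM in the libraries labelled KO, against 230.1 to 239.6 in those labelled WT. Of 10 hepatocyte markers 8 fell and 1 rose, with sums of 15.3 to 16.5 CPM in the libraries labelled KO, against 93.6 to 97.2 in those labelled WT, and a median log2 fold change of -2.77, the lowest of the marker lists. Endothelial markers had 2 of 10 higher and 2 lower, with sums of 555 to 559 CPM in the libraries labelled KO, against 532 to 546 in those labelled WT. Of 10 adipocyte markers 5 rose and 3 fell, with sums of 2532 to 2654 CPM in the libraries labelled KO, against 2567 to 2627 in those labelled WT. Of 12 skeletal muscle markers 7 rose and 3 fell, with sums of 26591 to 27469 CPM in the libraries labelled KO, against 20535 to 20998 in those labelled WT.

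Set against the summed fibroblast markers of the same library, a comparison chosen after the values were seen, Dcn had 12.4 ± 1.2 CPM per 100 marker CPM in the libraries labelled KO and 23.9 ± 0.84 in those labelled WT (SD, n = 3 each), a ratio of 0.517. On this scale Ogn had 1.20 ± 0.19 in the libraries labelled KO and 3.86 ± 0.21 in those labelled WT, and Fmod had 0.263 ± 0.13 and 4.75 ± 0.017. For Aspn the groups overlapped, at 3.99 ± 0.60 in the libraries labelled KO and 3.57 ± 0.44 in those labelled WT. Podn was higher in every library labelled KO, at 0.992 ± 0.11, against 0.660 ± 0.11 in those labelled WT. Bgn, Lum and Prelp were lower in every library labelled KO, with ratios of the group means of 0.771, 0.544 and 0.816. Gsn alone gave a mean of 327 CPM of the fibroblast sum in the libraries labelled KO and 577 in those labelled WT. Ly6a gave 107 and 96.7 CPM in the same order, and Dpt 28.9 and 74.9. These ratios therefore rest largely on Gsn, which fell 1.77-fold, whereas Dpt fell 2.59-fold. Ratios to single fibroblast markers were not computed.

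Against the summed tendon markers Dcn overlapped between the groups, at 246 ± 35 CPM per 100 marker CPM in the libraries labelled KO and 253 ± 19 in those labelled WT. Lum also overlapped, at 24.4 ± 5.5 in the libraries labelled KO and 24.0 ± 1.9 in those labelled WT. Fmod remained apart, at 5.12 ± 2.3 in the libraries labelled KO and 50.1 ± 2.5 in those labelled WT, as did Ogn, at 23.6 ± 3.0 and 40.8 ± 3.2. On this scale 4 genes were higher in every library labelled KO. Bgn had 158 ± 11 in the libraries labelled KO and 109.6 ± 5.1 in those labelled WT, and Aspn had 79.0 ± 13 and 37.8 ± 5.9. Prelp had 37.9 ± 4.7 in the libraries labelled KO and 24.8 ± 3.4 in those labelled WT, and Podn had 19.6 ± 1.8 and 7.00 ± 1.4. The tendon sum was 3.12-fold lower in the libraries labelled KO, while the median log2 fold change of the list was -2.24. The sum thus follows the less changed markers of the list, and these comparisons depend on that weighting. Ratios to single tendon markers were not computed.

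Against the summed smooth muscle markers the same 4 genes were higher in every library labelled KO, with ratios of the group means of 1.28 for Bgn, 1.86 for Aspn, 1.35 for Prelp and 2.50 for Podn. Dcn (0.859), Ogn (0.516) and Fmod (0.0923) were lower in every library labelled KO, and Lum overlapped (0.903). Bgn and Prelp were thus lower against the fibroblast list and higher against the tendon and smooth muscle lists. Podn was higher against each list, and Aspn overlapped against the fibroblast list alone. The smooth muscle sum was 2.77-fold lower in the libraries labelled KO, while the median log2 fold change of that list was -2.00 (-1.80 with Myocd at the floor).

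**Figure D5:**
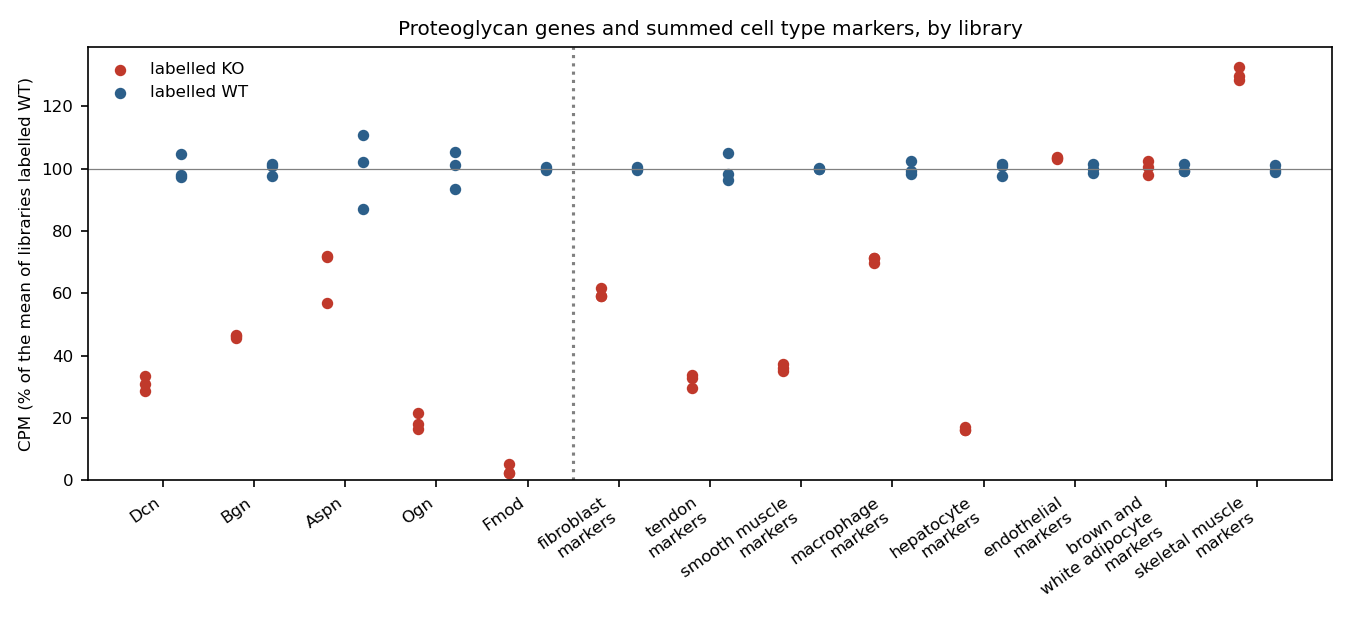
CPM of 5 proteoglycan genes and summed CPM of 8 lists of cell type markers in each library, as a percentage of the mean of the libraries labelled WT (grey line at 100), with libraries labelled KO in red on the left of each pair and libraries labelled WT in blue on the right. Fibroblast, tendon, smooth muscle, macrophage and hepatocyte markers lie below 100 in the libraries labelled KO, endothelial and adipocyte markers lie near 100, and skeletal muscle markers lie above it.

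The genes most like Dcn over the 6 libraries were sought by the distance between log2 CPM profiles, each centred on its own mean, among 7882 genes with a mean CPM of at least 5. The nearest 5 were Pmepa1 (distance 0.19), Adcy5 (0.21), Lhfp (0.23), Myh11 (0.24) and Tns3 (0.25), with log2 fold changes between -1.68 and -1.61. Lum was the nearest proteoglycan gene, in place 11 (0.30), and Bgn came in place 92 (0.73), Prelp in place 132 (0.91) and Ogn in place 144 (0.95). The profiles span both groups, so the difference between the groups enters this distance.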

How the data were processed

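Poly(A) RNA of 6 mouse aorta libraries was sequenced with paired-end reads, per the labels' protocols, which also speak of an adipose type. The counts were deposited by the authors without normalization, per the file headers, and the FPKM were computed by the authors by a step that no source used here describes. Bowtie 0.12.2, HISAT2 2.0 and mm8 appear, without roles, in the submitters' processing notes. No source used here says how reads were counted or whether strand was used. Gene coordinates equal GENCODE M21 on GRCm38 for 91.2% of 33815 shared genes. The table has 0 columns of other samples and 0 rows without a gene name.

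Groups were taken from the genotype labels. The test on counts was run in edgeR 4.0.16 under R 4.3.3: filterByExpr, TMM scaling, quasi-likelihood F-test, two-sided, Benjamini-Hochberg adjustment over 16620 genes, threshold 0.05. SE is the fold change over the root of F. Of values from 1 to 40 counts, 33.0% to 34.9% were multiples of 4, against 25% by chance, so a read pair may often add 4 counts and totals overstate depth. The floor was therefore 12 counts per library. Members, lists, alternatives and the rule for named genes (10 members, Otud1, up to 4 genes per pathway list by smallest p, neighbours, 3 leading or absent markers per cell type) were chosen with earlier results of these data known; other genes named in the text were chosen after their values were seen. Alternatives used DESeq2 1.42.0 and limma 3.58.1 on log2(FPKM + 1) or log2(FPKM + 0.1), with a mean FPKM of at least 1 or no filter. Same-numbered libraries did not deviate together (correlations -0.0086 to 0.024). Replicates of a group differed by more than counting noise. Sequences are from RefSeq.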

Additional observations from a re-analysis of the deposited data

How the results depend on the processing

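The count of proteoglycan genes that passed was 8 in the 14 alternatives on counts (DESeq2, its size factors, no filter, a mean CPM of at least 1, robust empirical Bayes, counts divided by 4, mitochondrial genes removed, the replicate block and each library left out), all lower. It was 7 in the 4 limma fits on FPKM, because Kera missed the filter in 3 and Aspn lost its call in the unfiltered one (log2 fold change -0.40, adjusted p = 0.12). Leaving out 1 library gave 8 to 8 members and 2878 to 3171 genes, against 3658 in all. With the replicate block 3255 genes passed and 8 members; the numbers do not pair the samples, and no member's call changed. Signs turned for genes that never passed: Omd lay between -1.39 and 0.31 with 1 library left out, the positive value (adjusted p = 0.86) arising when WT replicate 1 was dropped, and Podn was 0.0017, 0.0057 and 0.0017 with limma on log2(FPKM + 1), on log2(FPKM + 0.1) and without a filter, and the cause was not tested. Scaling shifted all genes: the median log2 fold change was 0.15 on log2(FPKM + 1) and 0.02 after quantile normalization, and of the called genes 79.5% were higher on FPKM, against 52.1% here. Fold changes on log2(FPKM + pseudocount) understate low genes. Depth limits Omd, and arms left with 2 libraries share the pooled spread.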
